A study of Mus musculus with 6 samples.

Results

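The 35 genes described here encode proteins that fetal hepatocytes secrete into the blood or use in metabolism, among them albumin, alpha-fetoprotein, apolipoproteins, clotting factors, protease inhibitors and a few liver enzymes and surface proteins. They were chosen by name as a list, and all 35 were found among the 34542 gene symbols of the deposited count table. The libraries were made from polyadenylated RNA of fetal liver cells of C57BL/6J mouse embryos, with a fixed number of cells per preparation. Wild-type (WT) embryos gave 3 libraries, WT1 to WT3, and embryos in which the shared locus of both microRNAs, miR-144 and miR-451, is deleted (KO) gave 3, KO4 to KO6. Both groups share the strain, the tissue and the protocol, and no other allele or agent is named. The labels give no embryonic day, do not say whether the KO allele is confined to a cell type, and do not say whether a preparation came from 1 embryo or a pool. The p-values below therefore measure the spread between these libraries only. A design text that came with the series names HITS-CLIP, in which RNA crosslinked to a protein is sequenced, and data of that kind were not analysed here.

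Before birth the liver makes most red blood cells, so most of its cells are erythroid, and hepatocytes and their precursors, the hepatoblasts, make up a small share that lies between them. Fetal hepatocytes already produce most plasma proteins. Their genes are driven by a small set of liver transcription factors that include HNF4A, the C/EBP factors and the FOXA factors. miR-144 and miR-451 are microRNAs of the erythroid lineage. A microRNA guides an Argonaute protein to target RNAs through its seed, bases 2 to 8, and binding mostly lowers the amount or the translation of the target. The comparison of KO with WT asks which RNAs change in fetal liver when both microRNAs are missing. Most of the 35 genes are known as genes of hepatocytes, and a few, such as Ahcy and Apoe, are also active in other cells.

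The mature sequences of the deleted microRNAs are shown because their seeds decide which of the 35 genes carry a match. Capitals mark the seed, and the sequences are from RefSeq (GRCm38.p6, chromosome 11, plus strand, 78073186 to 78073207 for miR-451a and 78073047 to 78073066 for miR-144-3p).
miR-451a: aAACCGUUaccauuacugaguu
miR-144-3p: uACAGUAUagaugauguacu
The RNA match of the miR-451a seed is AACGGTT and that of the miR-144-3p seed is ATACTGT. In the longest annotated 3′ untranslated region of each gene, 0 of the 35 genes held the first word, against 2.03% of 11995 tested genes with such a region. The second word was found in 1 of the 35 genes, Ahcy, against 13.1% of the tested genes.

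The gene table held 24659978 to 44700229 counts per library. It held 0 symbols starting with Hba or Hbb (alpha and beta globins) or mt- (mitochondrial genes), and other globin symbols were not searched for. The targeted genes followed the labels: Mir451 had 323, 446 and 418 counts in WT1 to WT3 and 3, 2 and 4 in KO4 to KO6, and Mir144 had 51, 47 and 29 against 1, 1 and 0. A second deposited table gives exon and intron counts for 15543 genes. Its exon counts equalled the gene counts for all 15543. Its WT intron columns did not follow the WT exon columns of the same number. Over 7147 genes outside the hepatocyte lists, the deviations of exon and intron columns from their group means correlated at r = 0.27, -0.40 and -0.62 for the same number in WT, against 0.65, 0.35 and 0.60 in KO. WT exon columns 1, 2 and 3 correlated best with WT intron columns 2, 3 and 1, at r = 0.52, 0.72 and 0.64. These are correlations across genes, which are not independent replicates. Which of the tables carries the intended WT numbers is not given in the sources used here. The labels were kept as deposited, numbers such as WT2 refer to the gene table unless an intron column is named, and results that join exon and intron columns are given with both pairings. The KO against WT tests on all 6 libraries of gene counts alone, or of intron counts alone, do not use the WT numbers.

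The 35 genes together took 1.70%, 6.91% and 1.07% of the counts in WT1, WT2 and WT3 and 1.67%, 2.53% and 5.69% in KO4, KO5 and KO6. WT2 and KO6 were thus high and WT3 was low, and the 2 groups overlapped. Fewer hepatocytes in a preparation and less of these RNAs per hepatocyte cannot be told apart in RNA of whole cell preparations. Levels below are in CPM, the counts of a gene scaled to a common library size with TMM factors (trimmed mean of M values). For 34 of the 35 genes, all but Ahcy, WT2 was the highest of the 6 libraries, KO6 the second and KO5 the third. WT3 was the lowest for 35 of 35. Within WT the order was WT2, WT1, WT3 for 35 of 35 genes, and within KO it was KO6, KO5, KO4 for 34 of 35. WT1 stood above KO4 for 29 genes and below it for 6.

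**Figure D1:**
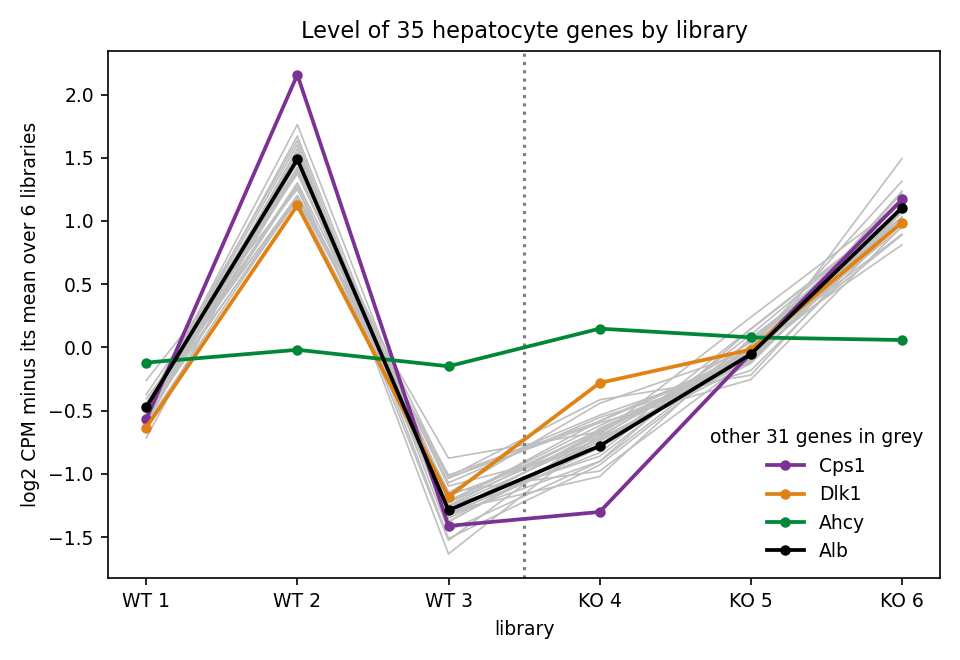
Level of the 35 hepatocyte genes in each library, as log2 CPM minus the gene's mean over the 6 libraries, with 1 line per gene and the 4 genes named in the legend in colour. The lines run together with WT2 and KO6 high and WT3 low, Cps1 has the widest range and Ahcy is nearly flat.

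Among the carriers, albumin (Alb), the main plasma protein and a carrier of fatty acids and drugs, measured 6658, 25923 and 3788 CPM in WT1 to WT3 and 5387, 8911 and 19874 CPM in KO4 to KO6. Alpha-fetoprotein (Afp), the fetal relative of albumin, measured 5083, 17598 and 3127 CPM in WT and 4729.6, 6801 and 16254 CPM in KO. Both genes were high in WT2 and KO6, and the groups overlapped. Together they made up 63.3% to 64.9% of the counts of the 35 genes in each library, a much narrower range than that of either gene alone. The ratio of Alb to Afp CPM ranged from 1.14 in KO4 to 1.47 in WT2. Alb had the most counts of all genes of the table in WT2, KO5 and KO6.

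Alb and Afp lie next to each other on chromosome 5 (GRCm38, plus strand, 90460897 to 90476602 and 90490737 to 90508907). Their promoters are shown because both genes moved together over the libraries and share a short word. The sequences are RefSeq's (GRCm38.p6), from 250 bases before to 50 bases after RefSeq's gene start, for chr5:90460620-90460919 and chr5:90490464-90490763 on the plus strand. For both genes that start lies some bases upstream of the one given above. Capitals mark TTGCNNAA, the site known for C/EBP factors, where N is any base, searched on both strands like the other words below.
Alb promoter: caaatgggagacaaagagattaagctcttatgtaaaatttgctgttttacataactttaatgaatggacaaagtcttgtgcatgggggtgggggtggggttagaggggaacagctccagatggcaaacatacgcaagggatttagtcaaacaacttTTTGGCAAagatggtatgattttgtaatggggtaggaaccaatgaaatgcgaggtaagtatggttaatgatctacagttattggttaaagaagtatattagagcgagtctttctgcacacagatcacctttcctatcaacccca
Afp promoter: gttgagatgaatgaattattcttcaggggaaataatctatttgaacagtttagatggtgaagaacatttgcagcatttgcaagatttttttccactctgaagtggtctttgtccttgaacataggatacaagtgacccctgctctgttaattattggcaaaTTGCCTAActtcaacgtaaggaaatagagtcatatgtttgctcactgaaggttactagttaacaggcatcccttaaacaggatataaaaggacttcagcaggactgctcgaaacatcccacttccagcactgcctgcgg
Of the 35 genes, 29 were in the promoter table. TTGCNNAA was in 15 of the 29 (51.7%), against 12.2% of all 27025 genes with a promoter there. The word CCAAT was in 12 (41.4%), near the 41.1% of all these genes, and TATAAA in 10 (34.5% against 15.7%). The FOXA word TGTTTAC was in 5 (17.2% against 4.05%), those of Apoa2, Apoe, Apoh, Dlk1 and Rbp4. Of the words known for HNF4 factors, AAAGTCC was in 1 (3.45% against 4.84%), that of Apoa2, and CAAAGTCCA in 0 (against 0.555%). Some matches can overlap each other, and a match is a description of the letters in this window, not a binding site. Whether any of the words bears on the levels was not tested.

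The other carriers were also highest in WT2, next in KO6 and lowest in WT3. Transthyretin (Ttr), which carries thyroid hormone and binds retinol-binding protein, measured 265, 1155 and 149 CPM in WT and 237, 400.1 and 796 CPM in KO. Rbp4, the retinol carrier itself, ranged from 103 CPM in WT3 to 509.8 CPM in WT2. Ambp, which encodes alpha-1-microglobulin and bikunin, ranged from 119 to 727 CPM, and hemopexin (Hpx), which binds free heme, from 38.0 to 228 CPM, each between WT3 and WT2. Transferrin (Trf), the iron carrier of plasma, measured 31.7, 137 and 15.4 CPM in WT and 29.5, 56.3 and 105 CPM in KO. Liver fatty acid-binding protein (Fabp1) measured 33.0, 94.3 and 17.9 CPM in WT and 20.1, 37.2 and 92.2 CPM in KO, so that KO6 lay close to WT2.

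Among the apolipoproteins, Apoa1, the main protein of high-density lipoprotein, measured 477, 1785 and 272 CPM in WT and 423, 665 and 1431 CPM in KO. Apob, the scaffold of very-low-density and low-density lipoprotein, measured 581, 2214 and 403 CPM in WT and 545, 691 and 1599.6 CPM in KO. Both had WT2 and KO6 apart from the other 4 libraries. Apoa2 ranged from 111 to 698 CPM, Apoh, which binds phospholipids, from 57.2 to 486 CPM, and Apoe, a ligand of lipoprotein receptors, from 232 to 1060.1 CPM. The range of Apoe over the libraries, 4.57-fold, was the narrowest of the 5. Apoe is also made by macrophages, and their part in its level was not tested.

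Of the clotting genes, the fibrinogen chains Fga, Fgb and Fgg form 1 protein, the precursor of fibrin, and lie together on chromosome 3 (GRCm38, 83007724 to 83049863 from the start of Fgg to the end of Fgb). Fga measured 286, 1202 and 170.0 CPM in WT and 237, 453 and 899.8 CPM in KO. Fgb measured 222, 924 and 129.6 CPM in WT and 191, 366 and 704 CPM in KO, and Fgg 172, 722 and 98.96 CPM in WT and 133, 274 and 523 CPM in KO. The 3 chains varied in step, with a highest over lowest library of 7.07, 7.13 and 7.30-fold. Prothrombin (F2) ranged from 55.5 to 380.1 CPM, plasminogen (Plg), the precursor of the fibrin-cleaving enzyme, from 115 to 739 CPM, and kininogen (Kng1), the source of bradykinin, from 107 to 722 CPM. Antithrombin (Serpinc1), which inhibits thrombin, ranged from 56.6 to 392 CPM. Factor X (F10) measured 34.5, 109 and 25.8 CPM in WT and 29.8, 46.8 and 83.1 CPM in KO, a range of 4.22-fold that was the narrowest of the 34 genes other than Ahcy.

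Of the inhibitors and related proteins, fetuin-A (Ahsg), which binds calcium phosphate in plasma, measured 726, 3072 and 355 CPM in WT and 531, 1011 and 2514 CPM in KO. Serpina1a and Serpina1b encode alpha-1-antitrypsins. Serpina1a measured 191, 807 and 113 CPM in WT and 171, 266 and 671 CPM in KO, and Serpina1b 170.2, 788 and 97.2 CPM in WT and 179.7, 259.6 and 787 CPM in KO. Serpina1b was the gene in which KO6 came nearest to WT2 among the 34, at 0.999 of it. The Serpina1 genes are near-identical copies, so the split of reads between them is uncertain. The inter-alpha-trypsin inhibitor heavy chain genes ranged from 18.6 to 154 CPM for Itih1 and from 257 to 1329 CPM for Itih2. Itih3 ranged from 112 to 713 CPM and Itih4 from 52.3 to 436 CPM. Itih1, Itih3 and Itih4 are neighbours on chromosome 14 (GRCm38, 30886476 to 30943289). Complement C3 ranged from 383 to 2118 CPM. Vitronectin (Vtn), an adhesive protein of plasma and matrix, ranged from 78.9 to 514 CPM. Vtn and Apoh are on the chromosome of the deleted locus, and Vtn lies 425884 bases from the end of the miR-451a sequence in GRCm38. The levels of Vtn were 127, 514 and 78.9 CPM in WT and 114, 180.4 and 376 CPM in KO.

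The last group holds a transcription factor, 2 enzymes and 2 surface proteins. Hnf4a, a nuclear receptor needed for hepatocyte gene expression, measured 38.7, 129.8 and 27.6 CPM in WT and 38.9, 52.1 and 116 CPM in KO. Dlk1, a surface protein of hepatoblasts, measured 152, 513 and 104 CPM in WT and 194, 233 and 467 CPM in KO. E-cadherin (Cdh1), which joins epithelial cells, measured 20.7, 72.1 and 15.5 CPM in WT and 23.7, 27.1 and 66.5 CPM in KO. In these 3 genes KO4 lay above WT1, as it also did for Rbp4, Serpina1b and Ahcy. Cps1, the first enzyme of the urea cycle, measured 17.1, 113 and 9.55 CPM in WT and 10.3, 24.6 and 57.2 CPM in KO. Its range of 11.9-fold was the widest of the 35 genes, and KO6 reached 0.505 of WT2, the lowest such ratio. Ahcy, which splits S-adenosylhomocysteine and is active in most cell types, measured 120.1, 129 and 118 CPM in WT and 145, 138 and 136 CPM in KO. Its groups did not overlap and its order over the KO libraries was the reverse of that of the other 34 genes.

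The spread of these genes between libraries was large beside that of other genes. The highest over the lowest library was 6.52-fold at the median of the 35 genes, and 4.22 to 11.9-fold over the 34 without Ahcy. It was 1.39-fold at the median of 10542 tested genes of at least 5 CPM. The SD of log2 CPM within a group was 1.17 at the median of the 35 genes, against 0.15 for those 10542. For 34 of the 35 the within-group SD was in the top 5% of up to 500 genes nearest in level. For the most expressed members this set was smaller and held mostly genes of lower level. These spreads are descriptions, since the genes were chosen with earlier results of these libraries known. Over the 6 libraries, Pearson's r of a member with the mean of the others was 0.978 to 0.9996 for the 34 genes and 0.28 for Ahcy. Without WT2 and KO6, the libraries farthest from the median of the members, r was 0.89 to 0.999 for the 34 genes and 0.51 for Ahcy. The values rest on 6 points that share their libraries.

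Levels of different genes can be compared only per length. On the scale of mean CPM over the 6 libraries per kilobase of transcript, Alb (5780) and Afp (4330) led, followed by Ahsg (922), Apoa1 (814) and Apoa2 (627). Ttr was at 422, Apoe at 386, Rbp4 at 285, Serpina1a at 272 and Ambp at 269 CPM per kilobase. Apob, whose CPM was among the highest, was at 72.2 CPM per kilobase because its transcript is the longest of the 35, 13934 bases. The lowest were Itih1 (20.6), Hnf4a (15.4), Cdh1 (8.49) and Cps1 (6.96). The 6 libraries overlapped between neighbours for all 34 neighbouring pairs in this order. The lengths are those of 1 annotated transcript per gene in GRCm38, so they can differ from those used in these cells.

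**Figure D2:**
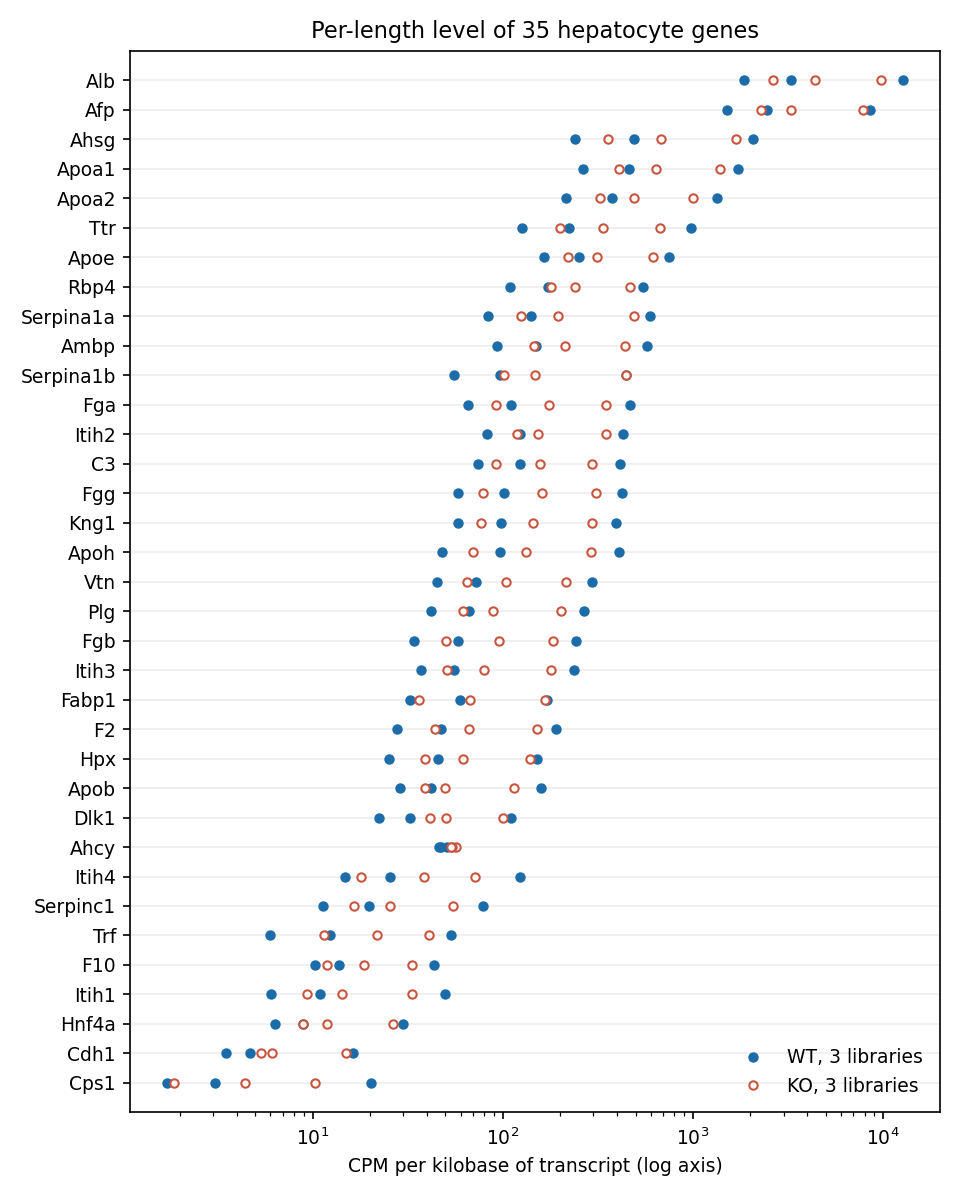
Level of each of the 35 genes per kilobase of transcript, on a log axis, ordered from highest to lowest mean, with 1 point per library (filled for the 3 WT libraries, open for the 3 KO libraries). Alb and Afp stand above all others and Cdh1 and Cps1 are lowest, and the WT and KO points of a gene overlap except for Ahcy.

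KO was tested against WT on all 15105 genes that passed a filter on low counts (all 35 members passed), by edgeR's quasi-likelihood F test with Benjamini-Hochberg (BH) adjustment over all tested genes. A gene is called at an adjusted p under 0.05. None of the 35 genes was called by edgeR, where the test called 3.28% of all tested genes. The members called higher in KO were 0, beside 1.83% of all tested genes (276), and those called lower were 0, beside 1.45% (219). At an unadjusted p under 0.05 there was 1 member, Ahcy, beside 16.6% of all tested genes. DESeq2 and limma-voom also called 0 members. Of the 15105 genes DESeq2 called 655 higher and 652 lower, and limma-voom 271 and 219. The median log2 change (KO minus WT) was -0.04 over the 35 genes and -0.03 over all tested genes. Below 0 were 25 members and above 0 were 10, and 33 lay within 0.25 of 0. Only Cps1 (-0.61) and Itih4 (-0.36) lay outside. The WT and KO libraries did not overlap for 1 of the 35 genes, Ahcy, against 22.7% of all tested genes.

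These values do not show that the genes are at the same level in both groups, since the spread within the groups leaves wide intervals. Alb measured 12123 ± 12037 CPM in WT and 11391 ± 7555 CPM in KO (SD, n = 3 each). Its log2 change was -0.09 with a 95% interval of -2.02 to 1.85 (SE 0.81, edgeR adjusted p = 0.996). For Afp the change was 0.11, with an interval of -1.69 to 1.90 (adjusted p = 0.996 by edgeR). The SE of the log2 change was 0.77 at the median of the 35 genes, and the adjusted p of the 34 genes other than Ahcy was at least 0.905. By role, the median log2 change was 0.04 for the 8 carriers, -0.09 for the 5 apolipoproteins, -0.09 for the 8 clotting genes, -0.10 for the 9 inhibitors and related proteins and 0.11 for the last 5 genes.

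The sign of these small changes rested on single libraries. Without WT2 all 35 genes had a change above 0, with a median of 1.14. None of them was called, beside 483 called higher and 1012 lower of 15308 genes. Without KO6 only Ahcy had a change above 0 and the median was -0.73. There 0 members were called, beside 54 called higher and 44 lower of 15199 genes. Without WT2 and KO6 together the median was 0.52, all 35 changes were above 0, and Ahcy was called (log2 change 0.27, edgeR adjusted p = 0.048) where 9.41% of all genes tested were. By limma-voom on all 6 libraries 34 genes had a change above 0, with a median of 0.22. It called 0 members, beside 271 higher and 219 lower of 15105 genes. No direction is therefore given for the group.

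**Figure D3:**
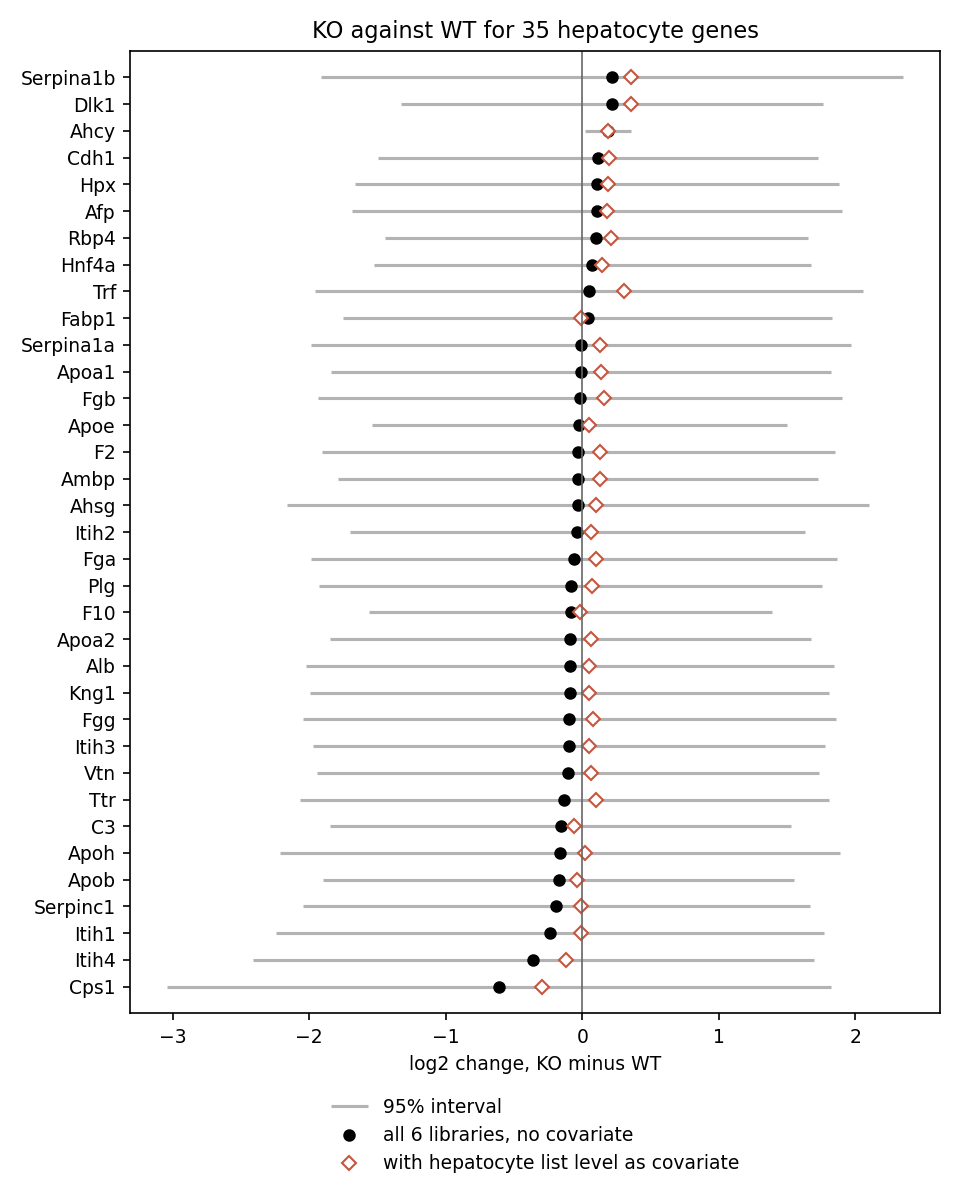
Log2 change of KO minus WT for each of the 35 genes, as black points with 95% intervals from edgeR on the 6 libraries, and as open diamonds from the fit with the level of other hepatocyte genes as a covariate. All intervals except that of Ahcy include 0 and span several log2 units, and the diamonds lie between -0.29 for Cps1 and 0.36 for Dlk1.

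A fit with the hepatocyte level of each library as a covariate was made to compare KO with WT at a like level of other hepatocyte genes. The covariate was the mean log2 CPM of 137 hepatocyte genes that are not among the 35, and it ranged from 2.67 in WT3 to 4.99 in WT2. In this fit the SE of a member's log2 change was 0.08 at the median, and the median change was 0.07. Cps1 was lower in KO (log2 change -0.29, SE 0.08, edgeR adjusted p = 0.0433) and Dlk1 higher (0.36, SE 0.10, edgeR adjusted p = 0.0495). The 2 calls among 35 stand beside 17.1% called among all genes tested, a larger share. Both calls lie just under the threshold, and Serpina1b lay just above it (log2 change 0.36, SE 0.11, edgeR adjusted p = 0.0533). At an unadjusted p under 0.05 by edgeR, 6 members were higher and 1 lower, beside 2226 and 2481 of 15105 tested genes. The slope of a member on this covariate was 0.91 to 1.52 for the 34 genes, with F10 lowest and Cps1 highest, and 0.03 for Ahcy.

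Ahcy was the 1 member whose level did not move with the others. It measured 122 ± 5.85 CPM in WT and 139 ± 4.58 CPM in KO (SD, n = 3 each). The log2 change was 0.19, with an SE of 0.07 and a 95% interval of 0.02 to 0.36, and its edgeR adjusted p of 0.243 missed the threshold. The change was above 0 under all alternatives run on the gene counts, from 0.15 without KO4 to 0.28 on library totals without a scaling factor. Its adjusted p was 0.168 by DESeq2 and 0.285 by limma-voom, and it passed the threshold only without WT2 and KO6. Whether the miR-144-3p match of Ahcy bears on its level was not tested. The match, in capitals below, is at position 177 of a 3′ untranslated region of 1139 bases. The bases around it are shown (Ahcy, GRCm38, chromosome 2, minus strand, 155059310 to 155074497).
Ahcy site: ctgtatccctcATACTGTtccaggtgtgg
The Ahcy promoter (RefSeq, GRCm38.p6, minus strand, chr2:155074448-155074747) is shown beside those of Alb and Afp because its level differed in pattern from theirs. It did not hold TTGCNNAA and did hold CCAAT on one of its strands. The promoters of Ambp, F10, Hnf4a and Vtn, whose levels moved with those of Alb, did not hold TTGCNNAA either. A link of the word to the levels was not tested.
Ahcy promoter: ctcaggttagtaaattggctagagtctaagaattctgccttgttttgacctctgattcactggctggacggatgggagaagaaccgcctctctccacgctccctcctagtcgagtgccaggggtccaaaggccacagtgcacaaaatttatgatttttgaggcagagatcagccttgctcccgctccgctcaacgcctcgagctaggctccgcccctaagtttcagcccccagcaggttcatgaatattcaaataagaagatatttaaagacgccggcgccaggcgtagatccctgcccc
An antisense gene, Gm45609, overlaps Ahcy in the annotation, and without a stated strand setting their reads cannot be told apart. In all, 11 of the 35 genes overlap another annotated gene.

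Other hepatocyte genes, in 9 lists that hold no member, varied over the same libraries. Of the 137 tested genes of these lists 0 were called by edgeR, beside 3.28% of all tested genes. An unadjusted p under 0.05 by edgeR was found for 0 of them, beside 16.6% of all tested genes. Their summed level was highest in WT2 and lowest in WT3 in each of the 9 lists. H19 and Igf2, imprinted genes of the fetal liver and of other fetal tissues, measured 927 to 4474 CPM and 509.6 to 2587 CPM between WT3 and WT2. Pzp, a protease inhibitor of the alpha-2-macroglobulin family, ranged from 146 to 1169.5 CPM, and Serpina6, the carrier of glucocorticoids, from 328 to 1404 CPM. The urea cycle enzyme Ass1 ranged from 28.7 to 163 CPM, a 5.70-fold range that was narrower than that of Cps1. Among the liver transcription factors Cebpa ranged from 12.5 to 45.5 CPM, and Rxra, which is expressed in many tissues, from 36.6 to 67.8 CPM. Between WT3 and WT2, the apolipoproteins Apom and Apoc2 ranged from 47.3 to 265 CPM and from 31.6 to 187 CPM. The inhibitors of plasmin and thrombin, Serpinf2 and Serpind1, ranged from 131 to 714 CPM and from 48.7 to 267 CPM. Complement component 5 (Hc) ranged from 48.2 to 301 CPM and the complement inhibitor Cfi from 42.0 to 250.2 CPM. Bhmt, which methylates homocysteine as part of the same cycle that Ahcy serves, ranged from 16.8 to 125 CPM and so, unlike Ahcy, moved with the members (7.43-fold). Gstm1, a glutathione transferase, ranged from 38.1 to 124 CPM. Acsl1, an acyl-CoA synthetase of many tissues, ranged over 1.78-fold and Cyp3a16, a fetal and neonatal cytochrome, over 6.27-fold, both with the lowest level in KO4.

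Markers of other fetal liver cells were measured beside the members, and their part in the results was not tested. Erythroid markers summed to 23384 to 32132 CPM in WT and 17646 to 20687 CPM in KO. By edgeR 2 of 11 were called lower in KO, Tfrc (log2 change -0.83, adjusted p = 0.0336) and Epb4.2 (-0.72, adjusted p = 0.0481), beside 1.45% of all tested genes. At an unadjusted p under 0.05 by edgeR 8 of the 11 were lower, beside 16.6% of all tested genes in either direction. The groups did not overlap for 8 of the 11, beside 22.7% of all tested genes, and the median log2 change was -0.55. The erythroid sum was lowest in WT2 among the WT libraries and in KO6 among the KO libraries. Macrophage markers summed to 388 to 965 CPM in WT and 455 to 680 CPM in KO, and endothelial markers to 149 to 421 CPM and 192 to 423 CPM. Mesenchymal markers summed to 85.0 to 188 CPM in WT and 94.6 to 180.3 CPM in KO. These 3 sums were highest in WT2 and KO6 within their groups, as the members were, over narrower ranges. Megakaryocyte markers summed to 197 to 384 CPM in WT and 207 to 335 CPM in KO, and neutrophil and mast cell markers to 1341 to 2107 CPM and 997 to 1679 CPM, both in another order of libraries. Of the 12 macrophage, 11 endothelial, 11 mesenchymal, 6 megakaryocyte and 9 neutrophil and mast cell markers tested, 0 were called by edgeR. None of them had an unadjusted p under 0.05 by edgeR. Of all tested genes 3.28% were called and 16.6% had such a p. Bile duct markers summed to at most 10.1 CPM, and 3 of 7 passed the filter, with 0 called.

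**Figure D4:**
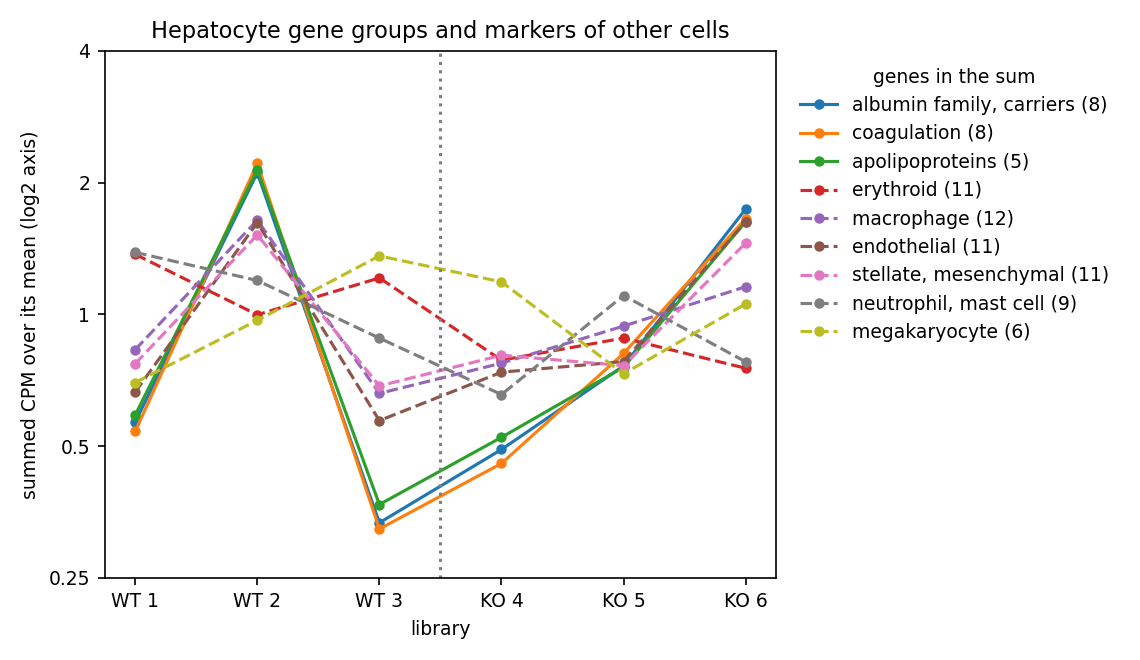
Summed CPM of gene groups in each library, divided by the group's mean over the 6 libraries, on a log2 axis, for hepatocyte groups (solid lines) and markers of other cells (dashed lines). The hepatocyte groups peak in WT2 and KO6, endothelial, macrophage and mesenchymal markers peak there with narrower ranges, and erythroid markers are higher in the 3 WT libraries than in the 3 KO libraries.

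Intron counts stand mainly for unspliced RNA. KO was tested against WT on intron counts of 11803 genes by the same edgeR test, and 0 of the 35 members were called, beside 0.72% of all genes tested (0.237% higher and 0.483% lower). The KO and WT columns overlapped for all 35 members, where 17.5% of all genes tested did not overlap. The smallest adjusted p by edgeR was 0.641 (Hpx), and DESeq2 also called 0. By edgeR 0 members had an unadjusted p under 0.05, beside 10.8% of all genes tested. The median log2 change was 0.07, with 21 members above 0. This median rested on single columns. Without WT intron column 3 it was 0.999, with all 35 members above 0. There 15 members had an unadjusted p under 0.05 by edgeR, all higher, beside 791 higher of 11949 genes, and 0 were called. Without KO intron column 6 the median was -0.41, with 4 members above 0 and 0 called. Alb intron counts measured 259, 552 and 1684 CPM in WT intron columns 1 to 3 and 390, 789 and 1273 CPM in KO4 to KO6. Column 3 was the highest WT intron column for 34 of the 35 genes, whereas library 2 was the highest WT library in gene counts. In KO the order of intron columns was 6, 5, 4 for 33 of the 35 genes, like that of the gene counts. The members took 0.188%, 0.393% and 1.10% of the intron counts in WT columns 1 to 3 and 0.330%, 0.561% and 0.937% in KO4 to KO6.

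Per 100 exon counts, the 35 genes together had 2.04, 1.22 and 28.4 intron counts in WT with columns of the same number, and 4.85, 4.11 and 3.29 in KO. With the WT intron columns re-paired to the exon columns they followed, chosen after seeing the data, the WT values were 4.80, 3.10 and 4.75. Ddx3y, a gene of the Y chromosome that is no hepatocyte gene, behaved likewise: 7.41, 29.3 and 49.5 as labelled, 23.0, 18.7 and 25 re-paired, and 22.0, 20.3 and 18.7 in KO. Over genes, intron counts per 100 exon counts pooled over WT were lowest for Apob (0.241) and highest for Trf (212). Trf, for which intron counts exceeded exon counts, overlaps Gm20425, a protein-coding gene on the same strand, so its reads cannot be assigned to Trf alone.

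**Figure D5:**
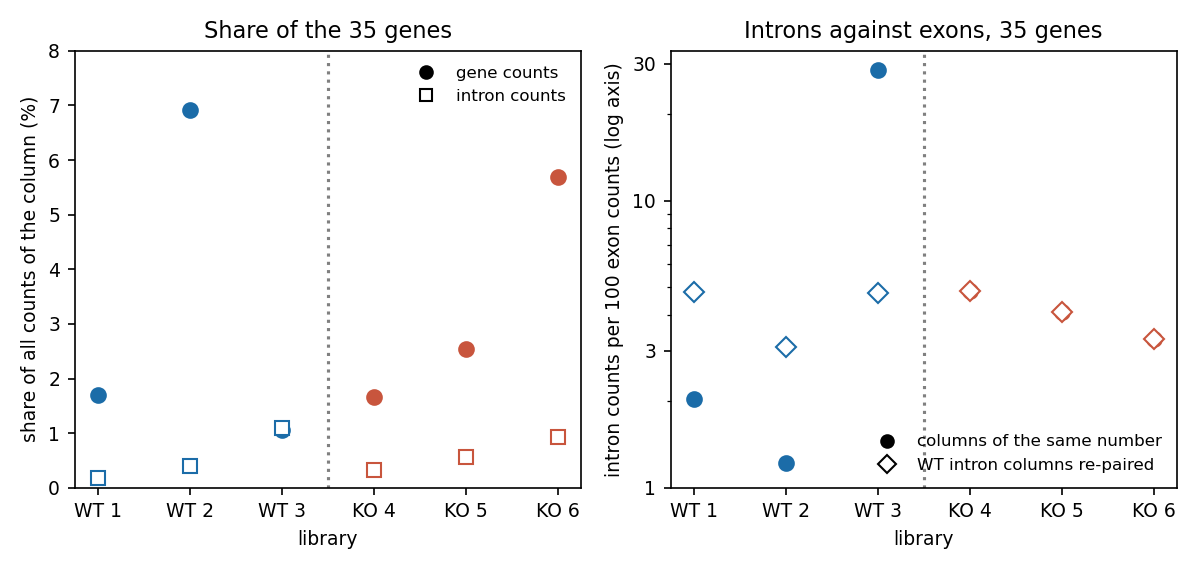
Left, share of all counts taken by the 35 genes in gene counts (filled) and intron counts (open squares) of each library. Right, their intron counts per 100 exon counts on a log axis, for columns of the same number (filled) and with WT intron columns re-paired (open diamonds), where WT runs from 1.22 to 28.4 as labelled and from 3.10 to 4.80 re-paired.

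The change in exon counts was then set against that in intron counts in 1 edgeR fit with a term per sample. None of the 35 members was called, beside 0.0% of 11100 genes, and 0 members had an unadjusted p under 0.05, beside 3.17% of all genes. DESeq2 also called 0 members, beside 37 genes higher and 2 lower. As labelled, this count rested on the columns of WT number 3: without them, 13 members had a lower exon change than intron change, led by Hpx (log2 difference -1.92, edgeR adjusted p = 0.0163), beside 1.33% of all genes. Leaving out number 3 as labelled takes out an exon and an intron column that did not follow each other (r = -0.62). With the WT intron columns re-paired, 0 members were called, beside 52 genes higher and 12 lower. An unadjusted p under 0.05 by edgeR was found for 3 members, Hpx (log2 difference -0.84, edgeR adjusted p = 0.116), Serpina1a (-0.44) and Itih3 (-0.29). Re-paired and without WT exon column 3 and the intron column it followed, 0 members were called, and the smallest adjusted p by edgeR was 0.226 (Hpx, log2 difference -0.88).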

How the data were processed

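Per the labels' protocols, polyadenylated RNA was sequenced on a HiSeq2000. The authors deposited raw counts per gene symbol in a gene table and in a table of exon and intron counts. The submitters' processing notes name STAR (an aligner) and HTSeq (a counter), and NCBIM37 and mm10 as builds, without versions or roles. Strand setting, intron definition and each table's build were not given in the sources used. The gene table's name says that globin and mitochondrial genes had been removed, so library sizes leave them out. Reads carry no molecular identifiers.

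From these counts edgeR 4.0.16 (R 4.3.3) computed TMM factors, CPM and the quasi-likelihood F test after filterByExpr (minimum count 10, minimum total 15), with BH adjustment over all tested genes and a threshold of 0.05, two-sided. Standard errors were derived from the F statistic. Correlations and spreads used log2 CPM with a prior count of 1. DESeq2 1.42.0, limma 3.58.1, other scalings, no filter, left-out libraries and a covariate were alternatives. The counts of libraries of 1 group differed beyond sampling noise (chi-square per degree of freedom 17.8 to 168), so each was kept as 1 replicate. The scripts were tested on simulated data.

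The members and lists were chosen with earlier results of these data known, and the promoter words after seeing some of their matches. All 35 members are named, with the 2 genes of highest mean CPM of each further hepatocyte list where none was called and the 10 genes most like the members; 1 gene that this rule names is not reported here. Positions, transcript lengths and untranslated regions came from GENCODE for GRCm38 by symbol (35 of 35 members matched).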

Additional observations from a re-analysis of the deposited data

How the results depend on the processing

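No paired analysis was possible because no replicate number occurs in both groups (WT 1 to 3, KO 4 to 6). Members called in gene counts were 0 by DESeq2, by limma-voom, under the other scalings, without the filter and with any 1 library left out; they were 1 higher and 1 lower with the hepatocyte covariate, and 1 higher without WT2 and KO6. In the covariate fit 19 of the 35 members had the other sign than without it, by limma-voom 24, on library totals 8, without the filter 8, with scaling factors from other genes 4, by DESeq2 0, and with 1 library left out 9 to 25. In introns no alternative called a member. In exon against intron change, 13 members were called lower without WT replicate 3 as labelled, and 0 were called in the other alternatives run. That held also with the WT introns re-paired and any 1 library, or WT2 and KO6, left out (chosen after seeing the data).

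Genes called over the whole table moved more. In gene counts they were 655 higher and 652 lower by DESeq2, 551 higher on library totals, 514 higher with scaling factors from genes outside the members and hepatocyte lists, 1266 higher and 1315 lower with the covariate, 580 higher and 838 lower without WT2 and KO6, and 5 to 483 higher and 7 to 1012 lower with 1 library left out. On library totals 250 genes were lower, and with the other scaling factors 271, so the share of higher calls moved with the scaling. In introns they were 123 higher and 217 lower by DESeq2. With 1 intron column left out they were 4 to 27 higher and 6 to 121 lower. Without WT intron column 2 and KO intron column 6 they were 1 higher and 0 lower. WT intron column 2 did not follow WT2 of the gene counts (r = -0.40). In exon against intron change they were 37 higher and 2 lower by DESeq2, and 9 higher with no term per sample. With the columns of 1 number left out as labelled, they were 0 to 44 higher and 0 to 106 lower. With WT introns re-paired they were 52 higher and 12 lower, 6 to 48 higher and 1 to 13 lower with 1 library left out (20 and 2 without WT1, 48 and 13 without WT2, 25 and 2 without WT3), and 33 higher and 2 lower without WT2 and KO6. The cause of these moves was not tested. In the fit without a covariate, the wide intervals of the members other than Ahcy limit what 3 libraries per group can show.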

Other observations

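Genes outside the members and the hepatocyte lists that followed the members most closely over the 6 libraries were Spp2, Slc38a4, Tmem176b, Lpl, Ostc, Elovl2, Aldh6a1, Acat1, Ugt2b34 and Hpn, with Pearson's r from 0.9988 to 0.9998 with the mean log2 CPM of the members, among 10542 tested genes of at least 5 CPM. Spp2, a secreted phosphoprotein, measured 30.1, 109 and 17.9 CPM in WT1 to WT3 and 25.5, 41.5 and 88.2 CPM in KO4 to KO6. Slc38a4, an amino acid transporter, measured 42.4, 146 and 27.0 CPM in WT and 37.6, 55.6 and 114 CPM in KO. Lipoprotein lipase (Lpl) ranged from 62.9 to 248 CPM. Ostc, a subunit of the oligosaccharyltransferase that adds sugars to secreted proteins in most cell types, followed the same order over a range of only 1.56-fold, from 68.7 CPM in WT3 to 107 CPM in WT2, and Acat1 over 2.44-fold. In all, 332 genes that are no members had an r of at least 0.99. These correlations rest on 6 libraries of which WT2 and KO6 carry most of the range.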
